A study of Rattus norvegicus with 5 samples.

Results

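The genes of the primary cilium and of intraflagellar transport (IFT) comprised 52 rat genes, chosen by name for their known roles. Earlier results of these data were known when they were chosen. They were found on the arrays by matching the RefSeq accession of each probe to a current rat gene symbol, which gave a measurement for 41 of the 52, among 15154 genes measured in all. The other 11 had no matched probe and are not analysed here, namely Ift52, Ift122, Ift140, Dync2li1, Bbs9, Bbs12, Cc2d2a, Tctn1, Pkd1, Rfx3 and Hhip. By role, the 41 were 14 of 18 genes of the IFT particles and their dynein, 8 of 10 Bardet-Biedl syndrome (BBS) genes, both of the other ciliary GTPases (Arl3 and Arl13b), 7 of 9 genes of the transition zone and basal body, 1 of 2 polycystins, 3 of 4 transcription factors of the RFX and FOXJ1 kind and 6 of 7 genes of the hedgehog pathway.

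The samples were Fischer rat thyroid (FRT) cells, an epithelial cell line from the thyroid of the Fischer strain, and the study compared cells embedded in Matrigel (a gel of basement membrane proteins), where they form 3D follicles, with the same line grown as confluent 2D monolayers, both on day 5 of culture. RNA was hybridised to 5 Agilent arrays with 2 colours. On 4 arrays, each of 4 biological replicates of 3D follicles carried the red dye Cy5 and was set against 1 pool of 4 monolayer cultures in the green dye Cy3. On the last array, here the swapped array, the dyes were exchanged, with the monolayer pool in Cy5 against pooled 3D follicles in Cy3, and its sign was turned so that all values below are log2 of 3D over 2D. All 4 replicate arrays shared the same monolayer pool, so the spread between 2D cultures was not measured, and the swapped array held RNA of the same cultures rather than a further replicate.

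The primary cilium is a single antenna-like projection of the cell surface, built on a basal body derived from a centriole. Its proteins are made in the cell body and are carried along the cilium by the IFT-B particle with kinesin-2, towards the tip, and by the IFT-A particle with dynein-2, back to the base, while the BBSome moves membrane proteins in and out and the transition zone controls what passes the base. RFX factors bind X-box motifs in front of many ciliary genes, hedgehog signalling in vertebrates runs through the cilium, and follicular cells of the thyroid carry a cilium that projects into the follicle lumen. Cells take their cilia down before they divide.

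Over all 15154 genes the 4 replicate arrays correlated with each other at r = 0.871 to 0.946, and the swapped array with them at r = 0.734 to 0.765, so the swapped array stood apart. The median over all genes lay between 0.00 and 0.01 on the log2 scale on every array. The sign on the swapped array opposed the mean of the replicate arrays for 43.2% of all genes and for 17 of the 41 ciliary genes (41.5%). All 6 epithelial markers were well above background on all 5 arrays in both conditions. Of 11 thyroid markers, Tg, Slc5a5, Tshr, Nkx2-1 and Duoxa2 were not well above background on any array in either condition, whereas Pax8, Duox2 and Cdh16 were above it on every array. Of 8 fibroblast markers 1, Pdgfra, passed as higher in 3D (0.55), and no marker of endothelial cells (5 measured), leukocytes (8) or C cells (6) passed. Passing marks a difference between 3D and 2D and does not show whether a cell type was present. In either condition, 5 fibroblast, 1 endothelial, 3 leukocyte and 2 C cell markers were well above background on some array.

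Of the 41 ciliary genes, 13 were higher in 3D follicles and 1 was lower at an FDR of 0.01 in limma, and 27 did not pass. Over all genes tested, 14.4% were higher in 3D and 11.4% lower, against 31.7% and 2.44% of the ciliary genes. Detection differed between these sets, as 11 of the 41 and 6139 of all 15154 genes were never well above background. Of genes well above background on all 5 arrays in both conditions, 11 of 27 ciliary genes and 2035 of all 7605 were higher. The changes of single ciliary genes were small. The 13 higher genes had fitted values of 0.18 to 0.48 on the log2 scale, or 1.13-fold to 1.39-fold, with a median of 0.32, and none reached a doubling, whereas the 2183 higher genes of the whole array had a median of 0.41 and included 180 at or above a doubling. All 13 were positive on all 5 arrays, as were 2097 of the 2183 higher genes of the whole array. The 13 were 5 IFT genes (Ift46, Ift172, Ift88, Ttc21b and Ift74), 4 BBS genes (Arl6, Bbs2, Bbs5 and Bbs10), Arl13b, the transition zone gene Tctn2, the basal body gene Ofd1 and the polycystin Pkd2. The gene that was lower was Bbs4. No regulator and no hedgehog gene passed.

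**Figure D1:**
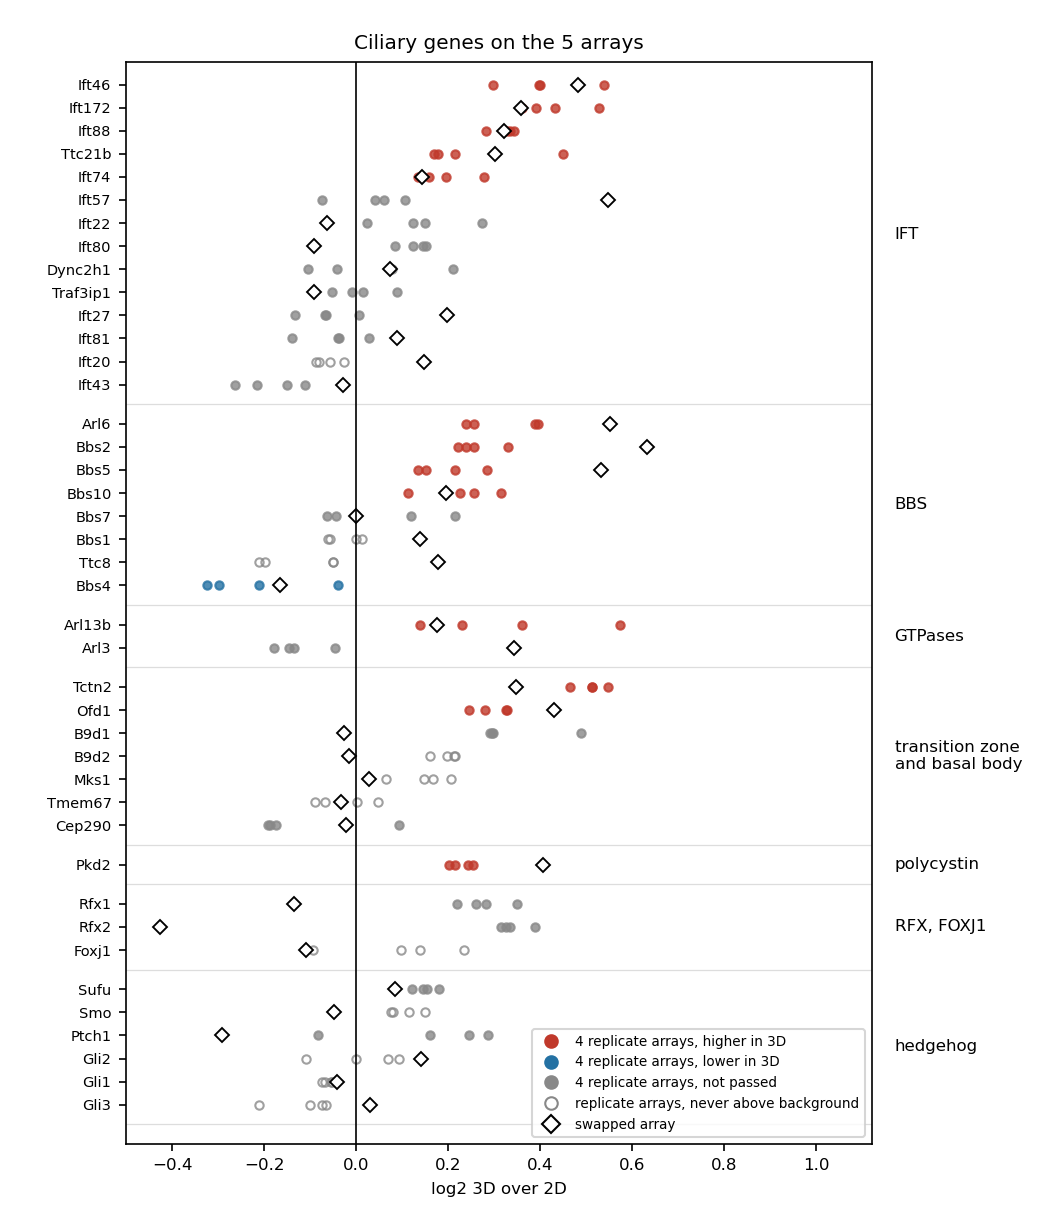
Log2 3D over 2D (horizontal axis) of the 41 measured ciliary genes (vertical axis), grouped by role and ordered by fitted value, with the 4 replicate arrays as circles and the swapped array as a diamond. Red and blue mark genes that passed at an FDR of 0.01, and open circles mark genes whose probe was never well above background. All 13 red genes lie to the right of 0 on all 5 arrays, and the swapped array of Rfx2 lies at -0.43 while its replicate arrays lie at 0.31 to 0.39.

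The median fitted value of the 41 genes was 0.10, beside 0.00 for all genes. On the single arrays the median of the 41 was 0.14, 0.14, 0.11 and 0.15 for replicates 1 to 4 and 0.09 on the swapped array, each above that array's median of all genes. IFT genes had medians of 0.04 to 0.11 on the replicate arrays, with 0.15 on the swapped array. BBS genes had medians of 0.06 to 0.20 and 0.19. Genes of the transition zone and basal body had medians of 0.20 to 0.22 on the replicate arrays but -0.02 on the swapped array. Of these 7 genes, 3 were never well above background. Each of the medians was the value of B9d2 or Mks1, both among those 3, so these medians rest on dim probes. The 4 genes above background had swapped-array values of 0.35 (Tctn2), 0.43 (Ofd1), -0.03 (B9d1) and -0.02 (Cep290). The hedgehog genes had medians of 0.00 to 0.10 and -0.01, but 4 of the 6 were never well above background, where the offset added in the background correction pulls ratios towards 0. The BBS median was above the hedgehog median on all 5 arrays, and the IFT and transition zone medians were above it on 4 of 5, replicate 2 being the exception for IFT genes and the swapped array for the transition zone. The order of IFT and hedgehog genes depended on the handling of dim probes, since the medians of the fitted values were 0.09 and 0.05 as processed, 0.12 and 0.13 without the offset, and both 0.10 with dim probes removed, which left 13 IFT and 2 hedgehog genes. These medians are descriptions of few genes, and no test was made of the differences between roles.

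**Figure D2:**
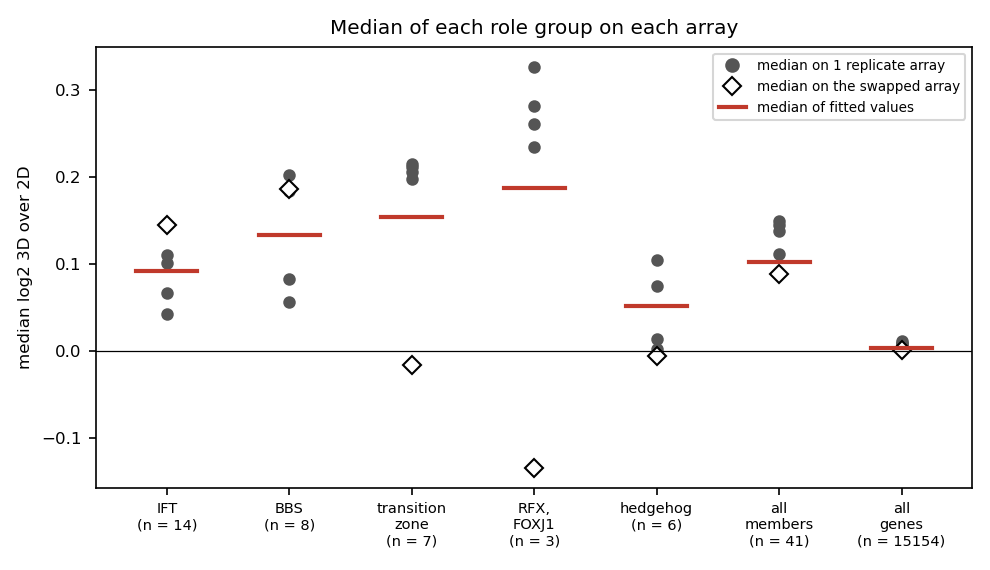
Median log2 3D over 2D of the genes of a role (vertical axis) for IFT, BBS, transition zone, regulator and hedgehog genes, all 41 ciliary genes and all 15154 genes (horizontal axis). Circles are the 4 replicate arrays, diamonds the swapped array and red lines the median of the fitted values. The transition zone and regulator diamonds lie below 0 (-0.02 and -0.13), while the IFT and BBS diamonds lie at 0.15 and 0.19.

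The promoters of the ciliary genes are shown for the motif that many of them share. RefSeq promoters of the build GRCr8, each 250 bases before and 50 bases after a gene's start, were at hand for 42 of the 52 genes. The RFX half-site GTTGCC, searched on both strands, was in 18 of these 42 (42.9%) and in 12.2% of all 27457 promoters of the table, 1 per gene symbol. The ciliary promoters also had a higher median G and C content, 60.2% against 52.3%, and its part in the difference was not tested. Motif shares were alike in genes that were higher in 3D (5 of 10 with a promoter) and in measured genes that were not (10 of 21). A strict form of the whole X-box was in 1 of the 42 (2.38%, against 1.47% of all promoters), in the unmeasured Tctn1, and a loose form in 24 of the 42 (57.1%, against 35.0%). The half-site began within 50 bases before the start in Ift88, Arl6, Tctn2 and Bbs5, which were higher in 3D, and as near to it in Ift81, B9d1 and Rfx1, which were measured and did not pass. The promoters of the first 4 and of Rfx1 are printed so that both outcomes can be seen, and each line gives the 250 bases before the gene's start, from 5′ to 3′ on the gene's strand, with the half-site in capitals on whichever strand it lies.
Ift88: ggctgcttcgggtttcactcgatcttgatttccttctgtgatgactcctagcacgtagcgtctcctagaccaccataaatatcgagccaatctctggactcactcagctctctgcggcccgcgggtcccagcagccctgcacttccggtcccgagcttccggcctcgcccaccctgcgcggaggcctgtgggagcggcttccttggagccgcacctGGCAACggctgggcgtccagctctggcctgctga
Arl6: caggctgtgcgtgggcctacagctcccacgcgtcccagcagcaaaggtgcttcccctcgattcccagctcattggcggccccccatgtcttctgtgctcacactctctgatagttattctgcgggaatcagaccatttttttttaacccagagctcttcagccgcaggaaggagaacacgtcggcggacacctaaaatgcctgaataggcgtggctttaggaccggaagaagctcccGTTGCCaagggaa
Tctn2: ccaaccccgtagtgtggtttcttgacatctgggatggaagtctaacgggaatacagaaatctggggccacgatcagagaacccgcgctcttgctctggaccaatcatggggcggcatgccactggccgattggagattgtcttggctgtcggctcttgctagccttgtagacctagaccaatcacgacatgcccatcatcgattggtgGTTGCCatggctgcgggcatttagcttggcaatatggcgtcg
Bbs5: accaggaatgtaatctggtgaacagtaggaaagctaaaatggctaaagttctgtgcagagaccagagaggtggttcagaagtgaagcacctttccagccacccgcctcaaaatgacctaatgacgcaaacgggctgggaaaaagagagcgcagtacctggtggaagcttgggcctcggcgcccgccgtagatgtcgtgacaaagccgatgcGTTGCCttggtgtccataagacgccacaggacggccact
Rfx1: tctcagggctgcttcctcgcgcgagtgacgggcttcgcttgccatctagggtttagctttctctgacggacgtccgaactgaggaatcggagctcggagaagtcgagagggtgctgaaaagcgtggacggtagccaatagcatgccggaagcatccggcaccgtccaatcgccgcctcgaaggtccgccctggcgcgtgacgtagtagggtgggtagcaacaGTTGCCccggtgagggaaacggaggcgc
These lie at chr15:35688737-35688986 (plus strand), chr11:54181108-54181357 (plus), chr12:37668036-37668285 (minus), chr3:74818390-74818639 (plus) and chr19:40996810-40997059 (minus). The half-site starts 34 bases before the gene's start in Ift88, 13 in Arl6, 42 in Tctn2, 39 in Bbs5 and 28 in Rfx1. A match describes letters in the promoter and does not show that a factor bound there in FRT cells.

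Within the IFT-B particle, 4 genes rose in 3D and none fell. Ift46, a subunit of the core of the particle, was 0.30, 0.40, 0.54 and 0.40 on replicates 1 to 4 and 0.48 on the swapped array. Its fitted value was 0.42 (SE 0.046, limma adjusted p = 6.69e-05). Ift172, a large peripheral subunit at which trains turn round at the tip, was 0.53, 0.39, 0.43 and 0.36, with 0.36 on the swapped array. The groups of values of both genes lay wholly above 0, and the fitted value of Ift172 was 0.41 (SE 0.042, limma adjusted p = 4.67e-05). Ift88, the subunit whose loss in the mouse leaves cells without cilia, showed the narrowest spread of the IFT genes that passed, with 0.33, 0.34, 0.28 and 0.33 on the replicate arrays, with 0.32 on the swapped array. It was 1.25-fold higher in 3D (0.32, SE 0.037, limma adjusted p = 0.000107). Ift74, which binds tubulin together with Ift81, was 0.20, 0.28, 0.16 and 0.13 on the replicate arrays, with 0.14 on the swapped array. Its value of 0.18 (SE 0.04, limma adjusted p = 0.00614) was the smallest that passed among the ciliary genes, and it no longer passed without replicate 1, 2, 3 or 4 (adjusted p of 0.0192 to 0.0330). Its partner Ift81 was near 0 (-0.02), with -0.14 to 0.03 on the replicate arrays, with 0.09 on the swapped array.

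The 7 other IFT-B genes did not pass. The small GTPases Ift22 and Ift27 had fitted values of 0.10 and -0.01, Ift80 had 0.08 and Traf3ip1, also known as Ift54, had -0.01. Ift20, which is also found at the Golgi, was not well above background on any array. Ift57 differed between the colour orientations, with -0.07 to 0.11 on the replicate arrays, with 0.55 on the swapped array. Its fitted value of 0.14 did not pass (limma adjusted p = 0.247), and with a term for the dye in the model it became 0.29 (limma adjusted p = 0.00101), a value that rests on the swapped array.

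In the IFT-A particle, which carries cargo back to the base, the 2 measured genes had values of opposite sign. Ttc21b, the subunit also called Ift139, was 0.18, 0.45, 0.17 and 0.21 on replicates 1 to 4 and 0.30 on the swapped array. It rose by 0.26 (SE 0.050, limma adjusted p = 0.00256), replicate 2 lying above the other arrays, and it did not pass without replicate 2 (adjusted p = 0.0107). Its probe was well above background in 2D on 3 of 5 arrays. Ift43, a small subunit, was negative on all 5 arrays, from -0.26 to -0.11 on the replicate arrays, with -0.03 on the swapped array, and did not pass with all arrays (-0.15, limma adjusted p = 0.0259) but did so without the swapped array (-0.19, adjusted p = 0.00471). The dynein-2 heavy chain Dync2h1 was well above background on 3 of 5 arrays in 3D and on none in 2D, so that its 2D level is only an upper bound, and its replicate values crossed 0, from -0.10 to 0.21.

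The BBS genes held 4 that rose and the 1 ciliary gene that fell. Arl6, the GTPase that recruits the BBSome to membranes, was 0.39, 0.39, 0.26 and 0.24 on replicates 1 to 4 and 0.55 on the swapped array, for a fitted value of 0.37 (SE 0.052, limma adjusted p = 0.000429). Bbs2, a BBSome subunit, was 0.33, 0.26, 0.22 and 0.24, and 0.63 on the swapped array. Its fitted value was 0.34 (SE 0.062, limma adjusted p = 0.00215). For both genes the swapped array gave the highest of the 5 values. The same held for Bbs5, a subunit that binds phosphoinositides, with 0.28, 0.15, 0.14 and 0.22 on the replicate arrays, with 0.53 on the swapped array. Bbs5 rose by 0.26 (SE 0.060, limma adjusted p = 0.00696), and did not pass without replicate 1, 2, 3 or 4 (adjusted p of 0.0118 to 0.0261). Bbs10, a chaperonin-like protein needed to assemble the BBSome, was 0.32, 0.26, 0.11 and 0.23, with 0.19 on the swapped array. It rose by 0.22 (SE 0.043, limma adjusted p = 0.00278), and lost its call without replicate 1, 2 or 4 (adjusted p of 0.0135 to 0.0159).

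Bbs4, the BBSome subunit that links to centriolar satellites, was read from the brighter of its 2 probes and was -0.04, -0.30, -0.32 and -0.21 on replicates 1 to 4 and -0.17 on the swapped array. It fell in 3D (-0.21, SE 0.050, limma adjusted p = 0.00915). The dimmer probe of Bbs4, also above background on every array, gave 0.53, 0.45, 0.46 and 0.43 on the replicate arrays, with -0.41 on the swapped array. The 2 probes therefore disagreed in sign on all 4 replicate arrays, and the mean of both was 0.04 (limma adjusted p = 0.710). The call was also lost without replicate 2, 3 or 4 (adjusted p of 0.0357 to 0.0465). Of the remaining BBS genes, Bbs7 was 0.05 and did not pass, and neither Bbs1 nor Ttc8 was well above background on any array.

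Of the pair of GTPases outside the BBS genes, Arl13b was 0.57, 0.14, 0.36 and 0.23 on replicates 1 to 4 and 0.18 on the swapped array. Arl13b, a membrane-bound protein of the cilium that activates Arl3, rose by 0.30 (SE 0.064, limma adjusted p = 0.00514), with the widest spread among replicates of the genes that passed (SD 0.188). It did not pass without replicate 1, 3 or 4 (adjusted p of 0.0116 to 0.0253) or with a dye term (0.25, adjusted p = 0.0260). Arl3, which releases lipid-modified cargo inside the cilium, was negative on the 4 replicate arrays (-0.18 to -0.05) and positive on the swapped array (0.34), with a fitted value of -0.03.

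At the transition zone, Tctn2 had the highest fitted value of all ciliary genes. Tctn2, a tectonic protein of the complex that gates the ciliary membrane, was 0.51, 0.51, 0.55 and 0.46 on replicates 1 to 4 and 0.35 on the swapped array. The fitted value was 0.48 (SE 0.043, limma adjusted p = 2.18e-05), or 1.39-fold. Ofd1, a protein of basal bodies and centriolar satellites, was 0.33, 0.33, 0.28 and 0.25, and 0.43 on the swapped array, for a fitted value of 0.32 (SE 0.042, limma adjusted p = 0.000236). Both genes were positive on every array, and the swapped array was the lowest of the 5 for Tctn2 and the highest for Ofd1.

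The other 5 genes of the transition zone did not pass. B9d1, a member of the B9 complex, came closest, with 0.30, 0.30, 0.49 and 0.29 on the replicate arrays, with -0.03 on the swapped array (0.27, limma adjusted p = 0.0103). Without the swapped array B9d1 (0.34, adjusted p = 0.000227) and B9d2 (0.20, adjusted p = 0.00176) both passed. B9d1 also passed over all 5 arrays where fewer genes were tested after removing dim probes (0.27, limma adjusted p = 0.00848). It did so too where all probes of a gene were averaged (0.27, limma adjusted p = 0.00970). B9d1 has 1 probe, so its own values were unchanged in both settings. B9d2, Mks1 and Tmem67 were not well above background on any array. Cep290, which links the ciliary membrane to the microtubules, was 0.09 on replicate 1 and -0.19 to -0.17 on replicates 2 to 4, with a fitted value of -0.10, and its second probe gave -0.13.

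Pkd2 encodes polycystin-2, a cation channel of the ciliary membrane, and its partner Pkd1 was not measured. Pkd2 was 0.24, 0.20, 0.25 and 0.21 on replicates 1 to 4 and 0.41 on the swapped array, with a fitted value of 0.26 (SE 0.044, limma adjusted p = 0.00112). All 5 values were above 0. Its probe was well above background on all 5 arrays in 3D but on 1 of 5 in 2D, and the size of the change depended on the background correction, with 0.72 for no offset in normexp and 1.27 from the processed signals of the scanner software. Both of these values passed (limma adjusted p = 0.00130 and 0.000762).

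Of the regulators, Rfx1 and Rfx2 gave values of opposite sign in the 2 dye orientations. Rfx2 was 0.31, 0.39, 0.33 and 0.33 on replicates 1 to 4 and -0.43 on the swapped array, and did not pass (0.19, SE 0.11, limma adjusted p = 0.241). Rfx1 was 0.22, 0.26, 0.28 and 0.35, and -0.13 on the swapped array (0.20, SE 0.067, limma adjusted p = 0.0503). For both genes the 4 replicate arrays lay on one side of 0 and the swapped array on the other. Without the swapped array both passed (Rfx1 0.28, adjusted p = 0.000314, Rfx2 0.34, adjusted p = 5.88e-05). In the model with a dye term the dye effect of Rfx2 was 0.38 (limma adjusted p = 0.00257), the only dye effect to pass among the 41 genes, beside 1.9% of all genes. With 1 swapped array a dye effect and another property of that array cannot be told apart. Foxj1, which drives motile cilia, was 0.23, 0.10, -0.09 and 0.14, and -0.11 on the swapped array, and was not well above background on any array. None of the 3 regulators passed at an FDR of 0.01 in limma, and Rfx1 alone had an unadjusted p under 0.05.

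**Figure D3:**
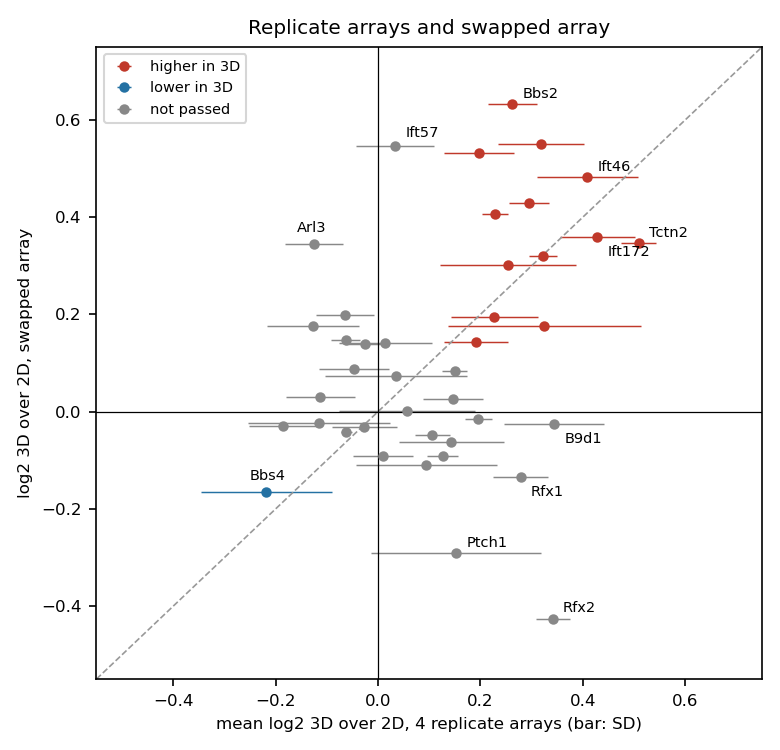
Log2 3D over 2D on the swapped array (vertical axis) against the mean of the 4 replicate arrays (horizontal axis, bars show the SD) for the 41 measured ciliary genes. The dashed line marks equal values. The 13 red genes lie in the upper right, Rfx1 (0.28 and -0.13) and Rfx2 (0.34 and -0.43) in the lower right, and Arl3 (-0.13 and 0.34) in the upper left.

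None of the 6 measured hedgehog genes passed at an FDR of 0.01 in limma, and 1, Sufu, had an unadjusted p under 0.05. Smo, the membrane protein that carries the signal into the cilium, was 0.08, 0.12, 0.08 and 0.15 on replicates 1 to 4 and -0.05 on the swapped array. The transcription factor Gli1, itself a target of the pathway, was -0.05, -0.05, -0.07 and -0.07, and -0.04 on the swapped array. Neither Smo nor Gli1 was well above background on any array in either condition. The same was true of Gli2 (-0.11, 0.09, 0.07 and 0.00, swapped array 0.14) and of Gli3 (-0.07, -0.10, -0.07 and -0.21, swapped array 0.03), so that a change of these 4 genes could not be detected here. Ptch1, the receptor and a target of the pathway, was above background on all arrays and was 0.25, 0.29, -0.08 and 0.16 on replicates 1 to 4 and -0.29 on the swapped array (0.06, SE 0.081, limma adjusted p = 0.619). Its values crossed 0 in the replicates as well as between orientations. Sufu, the inhibitor of the Gli factors, was positive on every array, with 0.14, 0.12, 0.18 and 0.15, and 0.08 on the swapped array (0.14, SE 0.038, limma adjusted p = 0.0200). It passed without the swapped array (0.15, adjusted p = 0.00804).

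The promoter of Ptch1 is printed since it was the only one of the 42 ciliary promoters with the GLI motif GACCACCCA, which is in 0.379% of all promoters of the table on either strand. The stretch is chr17:1555321-1555570 (plus strand, GRCr8), the 250 bases before the start, where the motif lies on the opposite strand 172 bases before the start, close to an RFX half-site, and both are in capitals.
Ptch1: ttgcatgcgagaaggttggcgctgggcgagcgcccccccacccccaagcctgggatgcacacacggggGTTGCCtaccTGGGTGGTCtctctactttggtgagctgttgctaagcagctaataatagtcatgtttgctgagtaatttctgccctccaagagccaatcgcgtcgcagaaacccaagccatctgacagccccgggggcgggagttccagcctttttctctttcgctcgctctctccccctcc
The letters alone do not show whether a Gli factor bound there in FRT cells.

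The wider machinery was read from 13 lists of ciliary genes. They held 137 genes that are not among the 52, of which 95 were measured. Of these 95, 28 (29.5%) were higher in 3D and 7 (7.37%) lower, with a median of 0.10. Over all genes tested the shares were 14.4% and 11.4%. Detection again differed, as 20 of the 95 and 6139 of all 15154 genes were never well above background. The counts by list below are descriptions of few genes, to be read beside the shares of all genes. In IFT-B, 2 of 4 rose, Ift70b (0.80, limma adjusted p = 8.96e-06) and Ift56 (0.29, limma adjusted p = 0.00999), the latter at the edge of the threshold, and Ift70b has a close copy, Ift70a, from which the probe may also take signal. Of the 2 further IFT-A genes, Wdr35 was lower in 3D (-0.32, limma adjusted p = 0.000255). Among the motors 4 of 7 rose and none fell, led by Dync2i1, an intermediate chain of dynein-2 (0.50), and Kif3b, a motor subunit of kinesin-2 (0.46). Of the BBS partners 3 of 4 rose, among them the GTPase Rabl2 (0.57) and the Rab8 exchange factor Rab3ip (0.43). Of the carriers of lipid-modified cargo 2 of 8 rose, Unc119b (0.63) and Pde6d (0.33). In the transition zone 5 of 9 rose and none fell, led by Rpgr (0.55) and Nphp4 (0.46). Members of the inversin compartment went both ways, with Nek8 at 0.23 and Anks6 at -0.57, each past the threshold, and so did the basal body and its appendages, where 3 of 16 rose (Rab11a 0.34, C2cd3 0.22) and 2 fell (Odf2 -0.74, Cep41 -0.41). Of 5 other proteins of the ciliary membrane, the channel Trpv4 rose (0.41). Of 3 other regulators, Rfx7 rose (0.30). Of the 17 other hedgehog genes 2 rose, Prkaca, a catalytic subunit of protein kinase A that acts in many pathways (0.35), and Efcab7 (0.24), and the ligands Shh, Ihh and Dhh were not well above background on any array.

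Of the 4 measured genes of cilium disassembly 3 fell in 3D, led by Plk1 (-1.39, limma adjusted p = 1.34e-07) and Aurka (-1.30, limma adjusted p = 1.30e-07), mitotic kinases that also act at the cilium. The scaffold Nedd9 rose (0.36). Plk1 and Aurka are also in the list of 9 measured markers of dividing cells, of which 8 fell and none rose. The median of the 9 was between -1.41 and -1.12 on the replicate arrays, with -1.25 on the swapped array, and all 9 were above background on every array in both conditions. The part of a lower share of dividing cells in the values of the ciliary genes was not tested, and in RNA of whole cultures fewer cells of a kind and less RNA per cell cannot be told apart. Of 13 genes of motile cilia, which multiciliated cells carry, 3 rose (23.1%, beside 14.4% of all genes), led by Tekt1 (0.51) and Rsph9 (0.45). Not well above background on any array were 6 of the 13 and Foxj1.

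Of the 14 genes that passed, 13 kept their sign under all 12 other settings, Bbs4 being the exception. Ift46, Ift172, Ift88, Arl6, Tctn2 and Pkd2 passed in 11 of the 12. Each of these genes has 1 probe, so removing dim probes or averaging probes left its fitted value unchanged. Ttc21b and Ofd1 passed in 10 of the 12, Bbs2 in 9, Bbs10 in 6 and Arl13b in 5. Bbs4 and Bbs5 passed in 4 and Ift74 in 3. In the authors' value table Ift74 and Bbs5 did not pass (limma adjusted p = 0.0155 and 0.0209). Normexp without an offset left 7 higher genes and the processed signals of the scanner software 8, and both gave larger values for Ttc21b (0.57 and 0.59) and Ift88 (0.52 and 0.55). When loess was replaced by median centring, no gene of the 15154 passed in limma, and 3096 had an unadjusted p under 0.05. Of the 41 ciliary genes, 16 were higher at that unadjusted level and none lower. The 3096 were not split by direction, so no share of all genes stands beside the 16, and they are only a description.

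**Figure D4:**
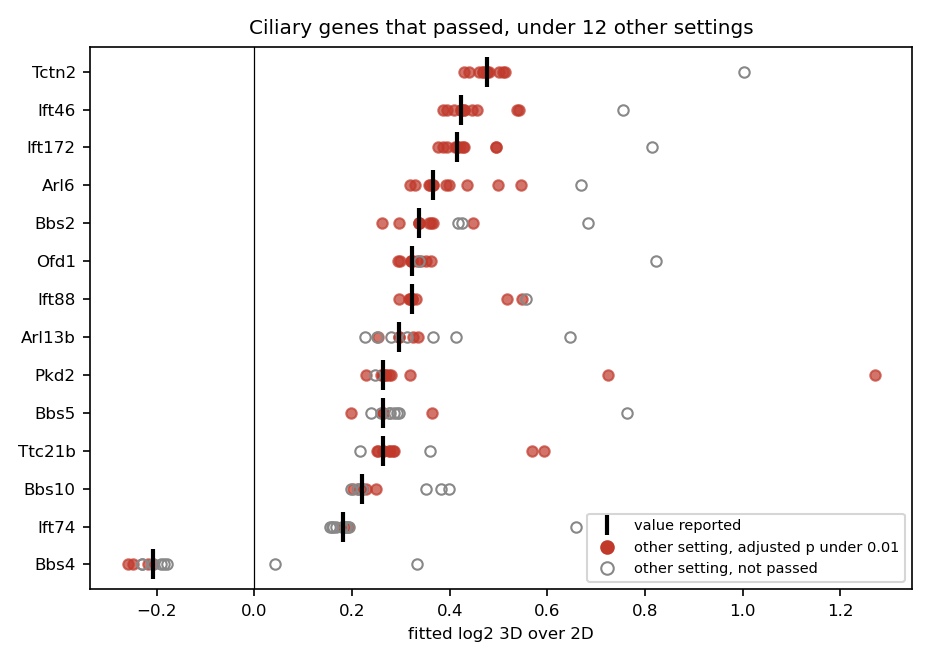
Fitted log2 3D over 2D (horizontal axis) of the 14 ciliary genes that passed (vertical axis), with the reported value as a black bar and each of 12 other settings as a circle, filled in red where it passed at an FDR of 0.01 and open where it did not. Circles of 13 genes stay above 0, and those of Bbs4 run from -0.26 to 0.33.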

How the data were processed

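Total RNA of FRT cells was measured on 5 two-colour Agilent rat arrays. Per the file headers, Agilent Feature Extraction read the deposited intensities, which for each spot and its background are medians over pixels with no normalization, beside processed intensities that the same software had background-subtracted and dye-normalized. The authors' value table, also deposited, holds log2 ratios per spot made in limma by normexp, loess and quantiles. All 5 of its columns ran 3D over 2D when set against the scanner files (r of 0.995 to 0.998, medians of -0.0064 to 0.0011). It served as an alternative.

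The median signals were analysed in limma 3.58.1 under R 4.3.3, by normexp with an offset of 50, which compresses fold changes of dim genes, loess within arrays (controls at weight 0) and quantiles of the average intensity. Outlier spots were left out and spots of a probe averaged. The arrays were designed on the build rn4. Of 30367 probes, 17998 (59.3%) matched a symbol through RefSeq accessions of GRCr8, and the brightest probe stood for each gene (15154 genes, 2605 with several). No gene was filtered out. A model with 1 coefficient over 5 arrays was tested against 0, two-sided, with Benjamini-Hochberg adjustment over all genes at an FDR of 0.01. Labels call the cultures biological replicates. No more is given on how they were kept apart. The number of arrays limits the precision, and the fit was tested on simulated ratios of 15151 genes, 200 of them changed. It recovered 22% of changes of 0.25 on the log2 scale, 78% of those of 0.5 and all of 1 or more. It called 1 unchanged gene. Noise was drawn independently for each array, so error shared through the monolayer pool and dye effects were not simulated. The simulation therefore does not give the rate of false calls on these arrays.

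The 52 genes, the lists and the tests were chosen with earlier results of these data known. Values are given on every array for genes that passed, polycystins, regulators and hedgehog genes, and from each list for at most 2 genes that rose and 2 that fell by the most (beside levels of marker genes). Alternatives were no offset, processed signals, median centring, the value table, dim probes removed, the mean of all probes, a dye term, and leaving out each array. Promoters were read from RefSeq sequences of GRCr8, the first listed for each symbol, and the half-site was singled out after several motifs had been searched.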

Additional observations from a re-analysis of the deposited data

Results flagged for a closer look

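For 3 of the 41 ciliary genes, 1 of the 4 replicate arrays lay far from the other 3 by Dixon's criterion, which chance meets in about 1 in 20 groups. B9d1 was 0.49 on replicate 3 and 0.29 to 0.30 on the other replicate arrays, Ttc21b was 0.45 on replicate 2 and 0.17 to 0.21 on the others, and Cep290 was 0.092 on replicate 1 and -0.19 to -0.17 on the others. The outlying array was a different one for each of these genes.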

How the results depend on the processing

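The 13 higher ciliary genes became 7 without the normexp offset, 8 with processed signals and 0 with median centring, and 9 to 10 when replicates 1 to 4 were left out in turn, but 18 without the swapped array, and 11 to 14 in the other settings. The 1 lower gene became 0 in those 3 settings, with the mean of all probes and with a dye term, 2 without the swapped array, and 0 to 1 over the replicates left out. The median of 0.10 became 0.19 without the offset, 0.15 with processed signals, 0.33 with median centring, 0.076 in the authors' value table, 0.18 with dim probes removed (30 genes left), 0.072 with a dye term, 0.14 without the swapped array and 0.090 to 0.12 over the replicates left out. Of all genes, 3918 passed, 2222 without the offset, 0 with median centring, 3001 to 3306 with 1 replicate left out and 5048 without the swapped array. With median centring the sign turned for 14 of the 41 genes, among them Bbs4 (0.33), Foxj1 (-0.15), Smo (-0.13) and Gli2 (-0.15), with the mean of all probes for 2, Bbs1 and Bbs4 (0.042), and with a dye term for 8, among them Rfx2 (-0.042), Foxj1 (-0.0072) and Ptch1 (-0.069). Of the 14 genes that passed, Bbs4 alone turned in any setting. The cause was not tested. No paired analysis was possible because all 4 replicate arrays share 1 monolayer pool. Signal over background limits 11 of the 41 genes, whose probes were not well above background on any array.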
